A study of Rattus norvegicus with 12 samples.

Results

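The genes described here are the cyclins, cyclin-dependent kinases and activating phosphatase that carry a cell from G1 into S phase, as they were measured in cultured heart muscle cells given forms of the transcription factor MEF2C. They are the D-type cyclins Ccnd1, Ccnd2 and Ccnd3, their kinases Cdk4 and Cdk6, the E-type cyclins Ccne1 and Ccne2, their kinase Cdk2, and Cdc25a, the phosphatase that activates it. A probe set (the group of array probes that reports 1 transcript) was taken for each symbol where it carried that symbol alone, chosen by its highest mean over the 12 arrays where a gene had several. Each of the 9 genes had 1 such probe set, so no choice by level was needed, and all 9 were among the 10025 genes tested. The set itself was drawn up with the γ+ results known.

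RNA was measured on whole-transcript Affymetrix rat arrays in primary cultures of neonatal Wistar rat ventricular cardiomyocytes, plated in serum for 44 h and then kept in serum-free medium for 24 h. All 4 groups shared these cells and media. The control group was untreated. The γ+ group received adenovirus particles of mef2Cγ+, the γ- group those of mef2Cγ-, and the 23/24 group those of mef2Cγ+-23/24. Every group had 3 arrays labelled as biological replicates. The γ segment is an alternatively spliced part of MEF2C known as a repressor domain, and the labels do not define 23/24. No group received a virus without an insert, so every comparison with control also contains whatever the virus itself did. The labels do not say whether replicates were separate cell isolations, and p-values then measure only the spread between these samples. Levels are log2 values of the deposited table, on which a difference of 1 is a doubling. Levels of different genes come from different probes and are not compared with each other. By the values that arrays have exactly in common, the authors seem to have normalized the control arrays together with the 23/24 arrays, and the γ+ and the γ- arrays each on their own, so that only the 23/24 group and control were compared within 1 normalization run. In bulk RNA a loss of cells of a type and a loss of RNA per cell cannot be told apart.

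D-type cyclins are made in response to growth signals and, bound to CDK4 or CDK6, begin to phosphorylate the retinoblastoma protein, which otherwise holds E2F transcription factors in check. Released E2F raises the E-type cyclins and CDC25A, and cyclin E with CDK2 completes the phosphorylation and starts DNA replication. Ventricular cardiomyocytes leave this cycle soon after birth, and the D-type cyclins are among the regulators known to allow their re-entry.

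Upstream sequence of 4 members that were higher in the γ+ group is shown first. E2F, MYC and SP1 sites are the textbook inputs of this family, and whether they acted in these cells was not tested. The RefSeq promoter table of the GRCr8 assembly gives 250 bases before 1 start site per gene, and the RefSeq gene record, which covers all transcripts, begins upstream of that site for some genes. What is printed is the part of the window outside the gene record, 5′ to 3′ on the gene's strand. It is the whole window in Cdk4, 173 bases in Ccne1, 164 in Cdk2 and 26 in Cdc25a. Capitals mark matches on either strand to an E2F site (TTTCCCGC, TTTCGCGC, TTTGCCGC or TTTGGCGC), to the E-box CACGTG bound by MYC, or to TGACGT, the core of the cAMP response element. The printed Ccne1 bases lie at chr1:99927987-99928159 on the minus strand, those of Cdk2 at chr7:1721965-1722128 on the minus strand, those of Cdc25a at chr8:118742798-118742823 on the plus strand and those of Cdk4 at chr7:64771203-64771452 on the plus strand.
Ccne1: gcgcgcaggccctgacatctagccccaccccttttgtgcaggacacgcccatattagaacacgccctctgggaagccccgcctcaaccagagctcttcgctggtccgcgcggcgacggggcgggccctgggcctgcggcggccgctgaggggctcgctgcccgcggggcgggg
Cdk2: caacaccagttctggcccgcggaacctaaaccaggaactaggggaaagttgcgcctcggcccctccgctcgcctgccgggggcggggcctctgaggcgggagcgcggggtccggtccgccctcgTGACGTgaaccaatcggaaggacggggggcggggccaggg
Cdc25a: attggtgagttccgTTTGGCGCcaac
Cdk4: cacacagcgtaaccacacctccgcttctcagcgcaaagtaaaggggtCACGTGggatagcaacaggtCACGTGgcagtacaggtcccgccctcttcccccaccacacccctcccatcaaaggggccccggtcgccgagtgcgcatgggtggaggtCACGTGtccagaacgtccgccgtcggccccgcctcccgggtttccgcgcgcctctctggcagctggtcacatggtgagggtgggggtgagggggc

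Of the 9 members, 5 had an entry in that table, these 4 and Ccnd3, whose window lies wholly inside its gene record. Ccnd1, Ccnd2, Ccne2 and Cdk6 had none. Motifs were searched in the 250 bases before the table's start site for all 27457 promoters. The Cdc25a window held an E2F match that begins 236 bases before that site and 12 bases before the gene record, a motif found in 1.81% of all promoters. The Cdk4 window held 3 E-boxes, beginning 203, 183 and 95 bases before the start, against 5.79% of all promoters with any. TGACGT was found once in Cdk2, beginning 40 bases before its gene record, and once in Ccnd3, and in 7.25% of all promoters. The GC box GGGCGG, to which SP1 binds, was present in all 5 windows, with 3 copies in Ccne1, 4 in Cdk2, 3 in Cdc25a, 1 in Cdk4 and 2 in Ccnd3, some of them inside the gene record, and in 32.4% of all promoters. The 5 windows were 58.0 to 72.8% G or C, and the promoters set beside them were not matched for this. None of the 5 windows held the AP-1 letters TGANTCA (6.36% of all promoters) or the MEF2 consensus (3.07% of all promoters). These are matches of letters, not measured binding sites.

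Ccnd1 and Ccnd2 were lower in the γ+ group than in control, and Ccnd3 was not called. Ccnd1, cyclin D1, the growth-signal-responsive cyclin that activates CDK4 and CDK6, stood at 9.70, 9.62 and 9.65 in the control arrays and at 7.71, 7.34 and 7.72 in the γ+ arrays. The γ+ arrays were all lower than every array of the other groups, and the γ+ replicate 2 array was the lowest. The difference was -2.06 ± 0.08 log2 (SE, n = 3 per group), a 4.18-fold lower level. Ccnd2, cyclin D2, which shares these kinases, stood at 10.65, 10.57 and 10.57 in control and at 9.36, 9.21 and 9.49 in the γ+ group. Again no γ+ array reached an array of another group, and the difference was -1.24 ± 0.06. Ccnd3, cyclin D3, binds the same kinases. Its levels were 8.61, 8.61 and 8.65 in control and 8.63, 8.46 and 8.62 in the γ+ group. These arrays overlapped, and the difference of -0.06 ± 0.06 had a 95% interval from -0.19 to 0.08. Its sign turned to 0.03 when arrays were centred on their medians.

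The kinases of the D-type cyclins differed from each other in direction. Cdk6 stood at 7.89, 7.98 and 7.83 in control and at 7.06, 6.72 and 7.03 in the γ+ group, a difference of -0.97 ± 0.09, with no overlap. Cdk4, which binds the same cyclins, stood at 11.30, 11.27 and 11.31 in control and at 11.54, 11.52 and 11.52 in the γ+ group. All γ+ arrays were above all control arrays here too, but by 0.23 ± 0.04, a 1.17-fold higher level. Except for Ccnd3, Cdk4 had the smallest difference among the members in this comparison.

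The E-type cyclins and their kinase were higher. Ccne2, cyclin E2, an activator of CDK2 at S-phase entry, stood at 6.73, 6.63 and 6.79 in control and at 9.78, 9.65 and 9.70 in the γ+ group. The gap between the groups was many times the spread within either. At 3.0 ± 0.07 log2, or 7.99-fold, it was the largest rise of the 10025 genes tested in the comparison with control. Ccne1, cyclin E1, rose from 6.67, 6.83 and 6.87 to 9.01, 8.84 and 8.96, a difference of 2.15 ± 0.07, which ranked 23 from the top. Cdk2, the kinase that both E-type cyclins activate, stood at 8.21, 8.19 and 8.19 in control and at 10.30, 9.92 and 10.22 in the γ+ group. Its difference of 1.94 ± 0.08 ranked 34 from the top. The γ+ replicate 2 array was the lowest γ+ array here and in every other member but Cdk4. It was thus the one nearest to control here and the farthest in Ccnd1, Ccnd2 and Cdk6. Cdc25a, which removes the inhibitory phosphates from CDK2, stood at 7.97, 8.10 and 8.06 in control and at 8.99, 8.71 and 9.04 in the γ+ group. The groups did not overlap, and the difference was 0.87 ± 0.07.

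**Figure D1:**
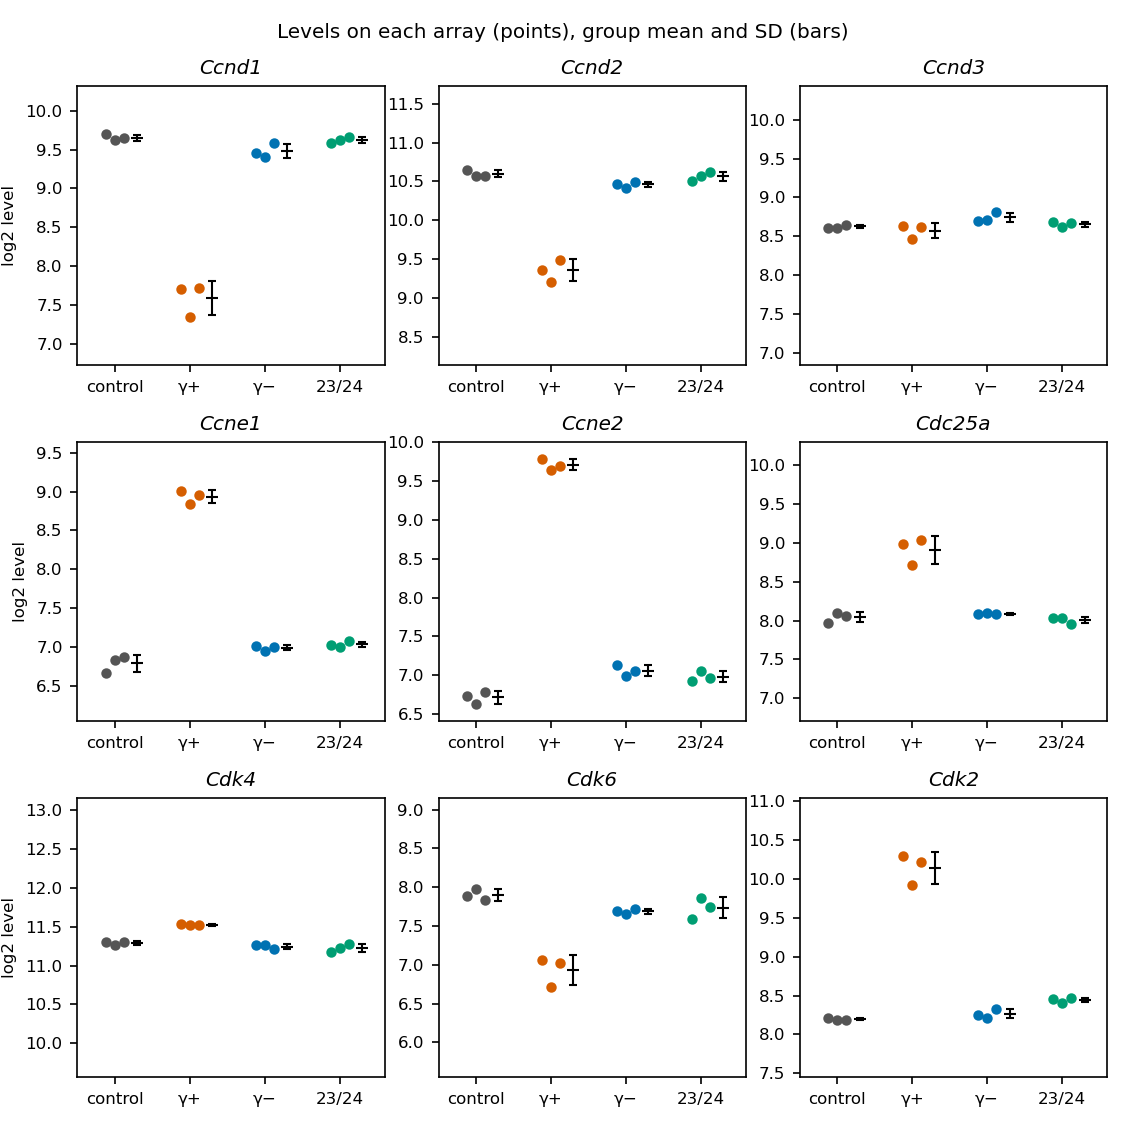
Level of each of the 9 genes on each array, in log2 units, with the mean and SD of the 3 arrays of each group. Every panel spans the same log2 range, and the γ+ arrays stand apart downward in Ccnd1, Ccnd2 and Cdk6, upward in Ccne1, Ccne2, Cdk2, Cdc25a and by a small step Cdk4, and overlap the control arrays in Ccnd3.

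In counts, 8 of the 9 members were called in the γ+ group against control (limma, adjusted p under 0.05 over all genes), 5 higher and 3 lower. The background is high. Of all genes tested 64.9% were called, 26.2% higher and 38.7% lower, and 66.6% had γ+ and control arrays that did not overlap, as did 8 of the 9 members. Since the members were chosen with this contrast in view, nothing is read from their count. The choice also fixes their sizes, which are given as a description. The median absolute difference was 1.24 log2 over the members and 0.30 over all genes, and 5 members, Ccnd1, Ccnd2, Ccne1, Ccne2 and Cdk2, were among the 907 genes called with a change of at least 1 log2. Median centring of the arrays moved the calls over all genes from 40.4% higher to 51.2% higher (3187 higher, 3041 lower) and changed the call of no member in this comparison.

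The same 9 genes were then compared between control and the γ- group, which received the form without the γ segment. That comparison also holds the virus itself and the inferred normalization run. It shares the control arrays with the γ+ comparison that was known when the members were chosen. Only Ccne2 was called. It stood at 7.13, 6.99 and 7.06 in the γ- arrays, all above the control arrays, a difference of 0.35 ± 0.07 (limma adjusted p = 0.0073) or 1.27-fold. It passed under 15 alternative settings, all those run other than a minimum change of 1 log2, with differences of 0.30 to 0.38 and limma adjusted p between 4.3e-04 and 0.0419. These settings refit the same arrays and are no separate support. That is 1 of 9 members called, against 6.94% of all genes, with 3.06% of all genes called higher. Ccne1 stood at 7.01, 6.95 and 7.0, also above every control array, with a difference of 0.20 ± 0.07 that did not pass (limma adjusted p = 0.0839).

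The falling members of the γ+ group had small differences in the γ- group. Ccnd1 stood at 9.46, 9.41 and 9.58, with a difference from control of -0.17 ± 0.08 (limma adjusted p = 0.2358). Ccnd2 stood at 10.47, 10.42 and 10.49, with a difference of -0.14 ± 0.06 (0.2039), and Cdk6 at 7.69, 7.66 and 7.72, with -0.21 ± 0.09 (0.1651). For these 3 genes every γ- array was below every control array, yet none passed. Fitted without the γ+ and 23/24 arrays, all 3 were called, and so they were with array weights. Array weights also raised the calls over all genes, and nothing is read from these added calls. Ccnd3 lay above control in every γ- array, at 8.70, 8.71 and 8.81, with a difference of 0.12 ± 0.06 (0.2578). Cdk2 (0.07 ± 0.08), Cdk4 (-0.05 ± 0.04) and Cdc25a (0.05 ± 0.07) overlapped control, with limma adjusted p of 0.6671, 0.5552 and 0.7607. In all, 6 of the 9 members did not overlap between the γ- and control arrays, against 33.4% of all genes.

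The 23/24 group was the one that seems to have been compared with control within a normalization run. Its comparison, too, uses the control arrays of the γ+ comparison known when the members were chosen. No member was called there, and no gene at all was (0% of 10025, lowest limma adjusted p = 0.2089). At an unadjusted p under 0.05, limma gave 899 genes, 9.0% of those tested, and 3 members, Ccne1, Ccne2 and Cdk2. Ccne1 stood at 7.02, 7.0 and 7.07, a difference of 0.24 ± 0.07 (limma adjusted p = 0.3093). Ccne2 stood at 6.93, 7.06 and 6.96, a difference of 0.27 ± 0.07 (0.2446). Cdk2 stood at 8.45, 8.41 and 8.47, a difference of 0.24 ± 0.08 (0.3817). In these 3 members every 23/24 array was above every control array, which held for 17.9% of all genes in either direction. The other members overlapped control. Ccnd1 (9.59, 9.62 and 9.66) and Ccnd2 (10.51, 10.57 and 10.62) differed by -0.03 each, with 95% intervals from -0.22 to 0.16 and from -0.18 to 0.11. Cdk6 (7.59, 7.86 and 7.75) differed by -0.16 ± 0.09, and Cdk4 (11.18, 11.23 and 11.28) by -0.06 ± 0.04. Ccnd3 (8.68, 8.62 and 8.67) and Cdc25a (8.03, 8.03 and 7.96) differed by 0.03 ± 0.06 and -0.03 ± 0.07.

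**Figure D2:**
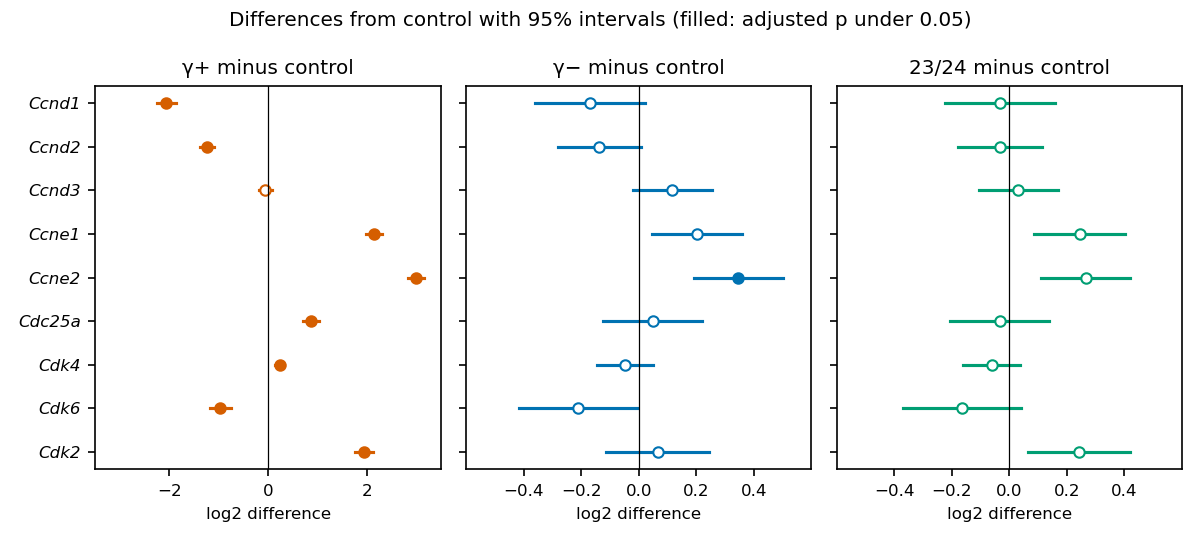
Difference of each group from control for each of the 9 genes, in log2 units, with its 95% interval from the limma fit and filled points for genes called at an adjusted p under 0.05. The left panel runs to 3.5 log2 either way and the other panels to 0.6, and Ccne2 at 0.35 is the one filled point outside the γ+ panel.

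Between the γ- and 23/24 groups, which share no array with the γ+ group or with control, no member was called, against 8.10% of all genes. The unadjusted limma p was under 0.05 for 1 member, Cdk2, and for 2454 genes or 24.5% of all. Cdk2 was lower in every γ- array, at 8.25, 8.21 and 8.33, than in the 23/24 arrays. Its difference of -0.18 ± 0.08 had a limma adjusted p of 0.1730. The 95% interval, from -0.35 to 0.0029, uses 8 degrees of freedom where limma's p-value uses more, and is therefore wider than limma's own. With the 6 arrays of these groups fitted alone, Cdk2 was called, but nothing is read from a call that depends on the setting. Ccnd1 differed by -0.14 ± 0.08 (limma adjusted p = 0.3288), Ccne1 by -0.04 ± 0.07 (0.7554) and Ccne2 by 0.08 ± 0.07 (0.4907). The arrays of 5 members did not overlap, against 36.2% of all genes. No end of the 9 members' intervals lay farther from 0 than that -0.35.

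Set against the γ- and 23/24 groups in place of control, the γ+ group gave like values. These comparisons use the same γ+ arrays as the one with control. Ccne2 differed by 2.65 ± 0.07 from the γ- group and by 2.73 ± 0.07 from the 23/24 group, and Ccne1 by 1.95 and 1.90. Cdk2 differed by 1.88 and 1.70, Ccnd1 by -1.89 and -2.03, Ccnd2 by -1.11 and -1.21, and Cdk6 by -0.76 and -0.80. Cdk4 differed by 0.28 and 0.29 and Cdc25a by 0.82 and 0.90. All 9 members were called against the γ- group, 5 higher and 4 lower, where 64.2% of all genes were (26.7% higher, 37.5% lower). Against the 23/24 group 8 were called, 5 higher and 3 lower, where 65.8% of all genes were (28.0% higher, 37.9% lower). The added call was Ccnd3, at -0.17 ± 0.06 against the γ- group (limma adjusted p = 0.0189). That call was lost with median centring (0.2415), with the 6 arrays alone (0.0588), without γ- replicate 3 (0.0921) and without γ+ replicate 2 (0.0539), and the limma adjusted p ran from 0.0154 to 0.2415 over the 15 alternatives.

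The inhibitors of these kinases also changed in the γ+ group, in both directions. Counts of these and the following lists in the γ+ group stand beside 26.2% of all genes called higher and 38.7% lower. Those in the γ- group stand beside 6.94% of all genes called, 3.06% higher and 3.88% lower. Nothing is read from a count of 0 or 1 there. Of 7 listed CDK inhibitors 6 were tested, and 4 rose and 2 fell against control, with a median of 0.52 where the median of all genes was -0.07. Cdkn1a, p21, which binds cyclin E and CDK2, rose from 9.81, 9.57 and 9.62 to 11.15, 11.37 and 11.10, a difference of 1.54 ± 0.07. Cdkn1c, p57, rose by 1.52 ± 0.07, Cdkn2c, p18, which binds CDK4 and CDK6, by 0.65 ± 0.07, and Cdkn1b, p27, by 0.40 ± 0.08. Cdkn2b, p15, and Cdkn2a, whose locus encodes p16 and ARF and which was named after its value was seen, differed by -1.58 ± 0.08 and -0.72 ± 0.12. The p21 inhibitor was also called in the γ- group, where Cdkn1a rose by 0.53 ± 0.07 (limma adjusted p = 8.2e-04), while Cdkn2c fell by 0.27 ± 0.07 there (0.0240, a call lost with median centring and without control replicate 1 or 2 or γ- replicate 2 or 3). In the 23/24 group Cdkn1a differed from control by 0.37 ± 0.07 (limma adjusted p = 0.2089). Cdkn2d was listed and not tested.

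The retinoblastoma proteins are what the G1 kinases phosphorylate, and E2F factors are what they release. Of 13 listed genes of these families 8 were tested, and against control 7 rose and 1 fell in the γ+ group, with a median of 0.54. The largest rises were in the repressive E2F factors, with E2f7 going from 6.35, 6.30 and 6.50 to 8.71, 8.80 and 8.68, a difference of 2.35 ± 0.08, and E2f8 rising by 2.25 ± 0.09. Rb1 rose by 0.70 ± 0.07 and the activating factor E2f1 by 0.68 ± 0.14. The activating factor E2f3 rose by 0.21 ± 0.09, a call lost without control replicate 3 (0.13) or γ+ replicate 1 or 2. Rbl2, p130, rose by 0.18 ± 0.07, a call lost without each array but γ+ replicate 2. E2f5, named after its value was seen, differed by -0.22 ± 0.09, a call lost with median centring, with quantile normalization and without control replicate 1 or any 1 of the γ+ arrays. Without control replicate 3 or γ+ replicate 1, 4 genes of the list rose. Rbl1 was not tested. Genes known as E2F targets in DNA replication rose in 17 of the 17 tested of 20 listed, with a median of 1.41. Cdc6 and Cdt1, which load the replicative helicase, rose by 2.41 ± 0.11 and 2.22 ± 0.09. The helicase subunit Mcm2 and the sliding clamp Pcna each rose by 1.41, with SE of 0.09 and 0.06. No gene of the retinoblastoma and E2F list was called in the γ- group, where 1 E2F target, the thymidine kinase Tk1, was lower by -0.36 ± 0.07 (limma adjusted p = 0.0051). Without control replicate 3 a further target, Cdc45, was called lower there, and without control replicate 2 Cdt1 was called higher.

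The cyclins and kinases of S phase and mitosis were higher in the γ+ group as well. Of 13 tested on that list of 16, 11 rose and none fell against control, with a median of 0.90. Ccnf rose by 1.64 ± 0.07, Ccnb2 by 1.41 ± 0.06, Ccna2, cyclin A2, by 1.35 ± 0.08, Ccnb1 by 0.90 ± 0.07 and Cdk1, the mitotic kinase, by 0.98 ± 0.09. Its activators Cdc25c and Cdc25b rose by 1.27 ± 0.08 and 0.85 ± 0.06. The inhibitory kinase Wee1 differed by 0.12 ± 0.10 and was not called (it was without γ+ replicate 2, at 0.24), nor was Mnat1, named after its value was seen, at -0.08 ± 0.07. In the γ- group Ccnf alone was called on this list, at 0.26 ± 0.07 (limma adjusted p = 0.0300, a call lost with median centring and without each of the 6 arrays but γ- replicate 2).

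The turnover list holds ubiquitin ligase genes that remove cyclins and their inhibitors, and Gsk3b, the kinase that marks cyclin D1 for removal. Of 11 tested on a list of 13, 4 rose and 3 fell against control in the γ+ group, with a median of 0.12. Skp2, which targets p27, rose by 1.82 ± 0.10, and Cdc20, the mitotic activator of the anaphase-promoting complex, by 1.18 ± 0.08. The 3 lower genes, Btrc (-0.25), Gsk3b (-0.22) and Rbx1 (-0.20), named after their values were seen, lost their calls with median centring, which left 5 higher and 0 lower. Rbx1 also lost it without any 1 of the control arrays or γ+ replicate 2 (-0.09 without the latter). Fbxw7, the receptor for cyclin E, was listed and not tested. None of the 11 was called in the γ- group.

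Transcription factors known to induce D-type cyclins include MYC, AP-1, NF-κB and β-catenin. Of 16 tested on a list of 17, 8 fell and 4 rose against control in the γ+ group, with a median of -0.23 (8 and 5 with median centring). Myc stood at 7.24, 7.27 and 7.30 in control and at 6.37, 6.23 and 6.31 in the γ+ group, a difference of -0.97 ± 0.06. Jun, an AP-1 subunit, differed by -0.83 ± 0.06. Ctnnb1, β-catenin, and Rela, a subunit of NF-κB, both named after their values were seen, rose by 0.48 ± 0.06 and 0.61 ± 0.12, the latter by 0.41 without γ+ replicate 2. Fos and Egr1, named after their values were seen, were not called (-0.08 ± 0.09 and -0.19 ± 0.12), though Egr1 was without γ+ replicate 2, at -0.40. Myc was also lower in the γ- group than in control, by -0.35 ± 0.06 (limma adjusted p = 0.0057), with all 3 arrays below, and lower than in the 23/24 group by -0.22 ± 0.06 (0.0466, a call lost with median centring and without any 1 of the 6 arrays).

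The other cyclins and kinases, most of which act in transcription or in neurons and not in G1, had 13 genes higher and 5 lower of 22 tested and 23 listed in the γ+ group against control, with a median of 0.26. Ccnk, a cyclin of transcriptional kinases, stood at 8.74, 10.0 and 8.90 in the γ+ arrays, and its difference of 0.63 ± 0.21 was 0.24 without γ+ replicate 2. Cdk8, the Mediator kinase, differed by -0.66 ± 0.07. In the γ- group Cdk11b was higher by 0.45 ± 0.09 (limma adjusted p = 0.0096, a call lost without γ- replicate 2) and Cdk8 lower by -0.28 ± 0.07 (0.0254, a call lost with median centring and without any 1 of the 6 arrays). No gene of any of these 7 lists was called in the 23/24 group against control.

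**Figure D3:**
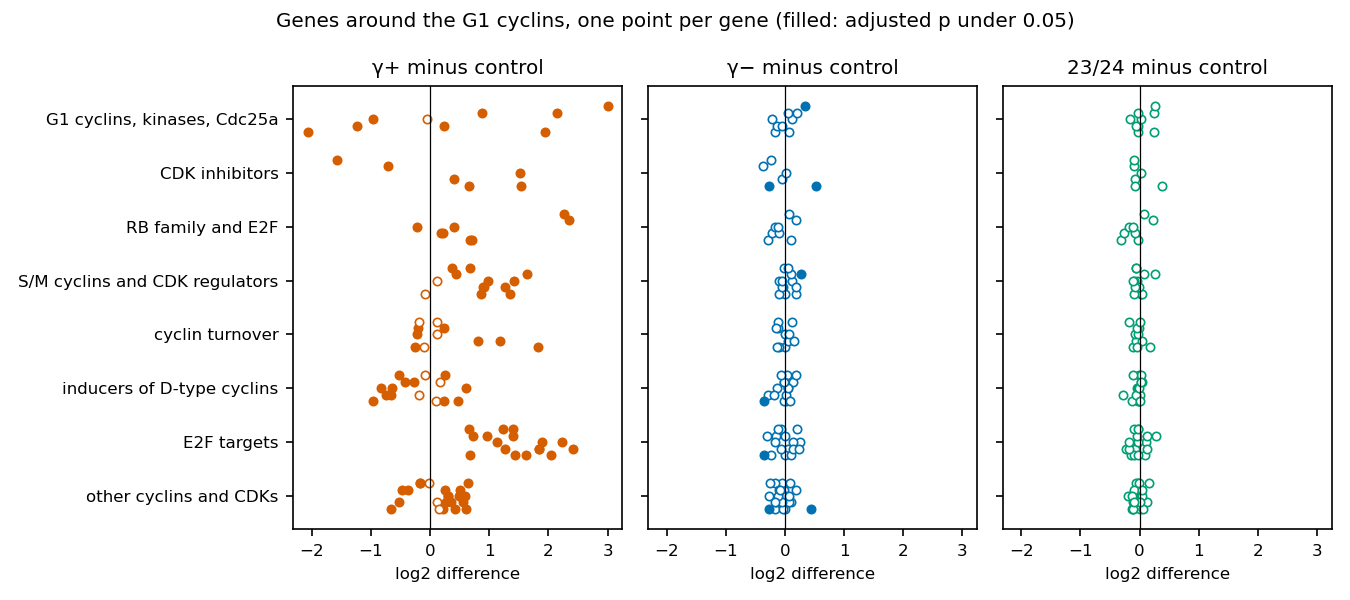
Difference from control in the γ+, γ- and 23/24 groups for each tested gene of the 7 lists around the G1 cyclins and for the 9 members, in log2 units, 1 point per gene and filled where called. In the γ+ panel the 17 E2F targets all lie to the right of 0 and the 16 inducers of D-type cyclins lie on both sides, while in the 23/24 panel no point is filled.

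Levels of cell type markers moved with the γ+ group as well. All 10 cardiomyocyte markers were lower than in control, with a median of -1.23, and their mean level per array was 11.88 to 11.94 in control and 10.66 to 10.71 in the γ+ group. All 10 fibroblast markers were lower, with a median of -1.44 and a mean level of 7.82 to 7.99 against 9.31 to 9.32 in control. Smooth muscle markers had 4 of 5 lower (9.40 to 9.48 against 10.20 to 10.24), endothelial markers 6 of 6 (5.66 to 5.77 against 6.49 to 6.57), and macrophage or leukocyte markers 2 of 4, or 1 without control replicate 2 and 3 without control replicate 1 or γ+ replicate 2 (6.04 to 6.18 against 6.34 to 6.41). C1qa and Ptprc of the last list were not tested. The lowest group mean of any cardiomyocyte marker was 8.13, that of the calcium release channel Ryr2 in the γ+ group, so the labelled cell type was present on all arrays. In the γ- group the cardiomyocyte mean was 11.95 to 11.97 and the smooth muscle mean 10.25 to 10.28, above all control arrays. The median differences of their markers were small, at 0.01 and 0.04 log2. Below control lay the fibroblast mean (9.17 to 9.20), the endothelial mean (6.36 to 6.45) and the macrophage or leukocyte mean (6.24 to 6.27). Their markers had median differences of -0.14, -0.17 and -0.11 in the γ- group. Of 6 endothelial markers 1 was called higher and 2 lower there, against 6.94% of all genes called. With median centring 1 was higher and 0 lower, and without 1 array at most 1 was higher and 1 lower. In the 23/24 group the cardiomyocyte mean was 11.86 to 11.93 and the fibroblast mean 9.24 to 9.34. The endothelial mean there was 6.45 to 6.46, also below all control arrays. The smooth muscle mean (10.19 to 10.25) and the macrophage or leukocyte mean (6.36 to 6.39) overlapped control. The part of the cell mixture in the members' values was not tested.

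**Figure D4:**
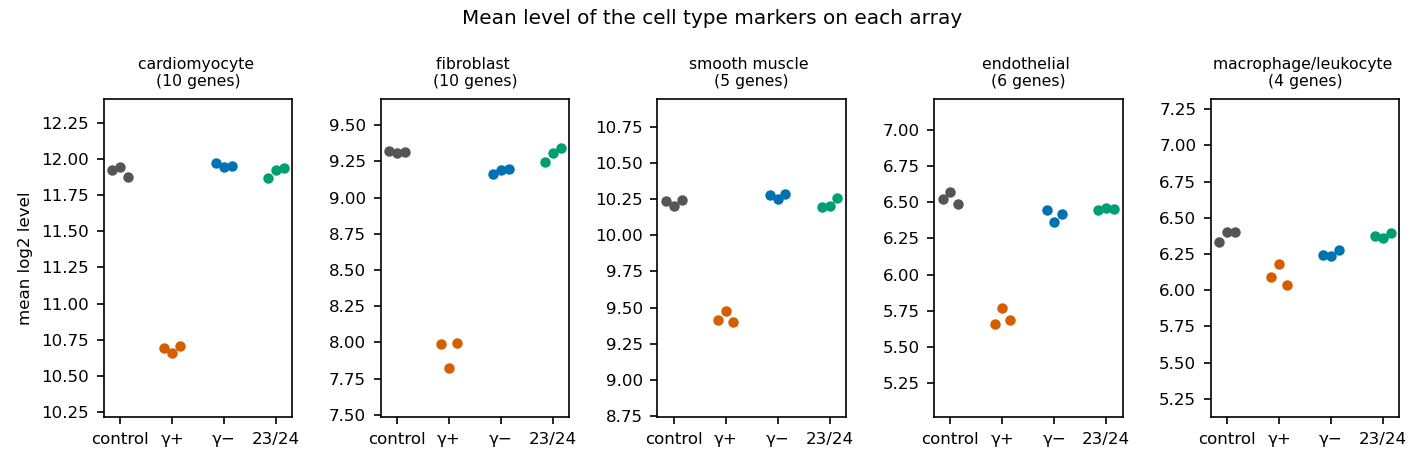
Mean log2 level of the tested markers of 5 cell types on each array, 3 arrays per group, with every panel spanning the same range. The γ+ arrays lie below all other arrays in each panel, by over 1 log2 for the cardiomyocyte and fibroblast markers.

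The genes whose pattern over the 12 arrays was most like that of Ccnd1 were Aqp1, Gpc1, Il1rl1, Ror1 and Dusp4, with Pearson r from 0.9981 to 0.9989. Those most like Ccne2 were Nusap1, E2f7, Alcam, Dek and Aurka, with r from 0.9962 to 0.9970. The 12 arrays fall into the γ+ arrays and the rest, so these values mostly describe that 1 step and the inferred normalization runs.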

How the data were processed

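The 12 arrays were grouped by their titles into 4 groups of 3. The values were the deposited ones, taken as log2 from their range (1.09 to 13.89, array medians 5.33 to 5.53). The submitters' processing notes name MAS5 without a version, and no source used here gives the log base, background correction or normalization. Exactly equal values occurred in all 21 pairs of arrays within the control and 23/24 arrays together, the γ+ arrays or the γ- arrays, with 27 to 111 such values a pair, and in 0 of 45 pairs across these sets, which is how 3 normalization runs were inferred. Mef2c itself had no named probe set and is not analysed here.

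Of 28826 probe sets, 15209 had 1 gene symbol in the platform annotation, 306 had several and 13311 had none, and 15178 of the single-symbol ones were matched to RefSeq (GRCr8) by Entrez identifier for current names. A filter removed probe sets whose mean over all arrays did not exceed its 40th percentile, log2 4.78. The probe set of highest mean stood for each of 10025 genes. The tests were limma's (version 3.58.1, under R 4.3.3, functions lmFit and eBayes with trend), with group means fitted to the 12 arrays together and 8 residual degrees of freedom, Benjamini-Hochberg adjustment over all genes within each of 6 comparisons, and calls at an adjusted p under 0.05. The procedure was tested on simulated data with independent noise and a change in a small part of the genes. That does not cover a change of most genes or separate normalization runs. The number of arrays limits the precision: between replicate arrays, the SD over genes of their log2 difference was 0.12 to 0.24.

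The members, the gene lists and the markers were chosen with earlier results of these data known. The genes named were the members, fixed regulators (the main CDK inhibitors, retinoblastoma and E2F genes, mitotic cyclins and kinases, Skp2, Fbxw7, Myc, Jun, Pcna and Mcm2), up to 2 called genes of largest change per list and comparison, and the 5 genes of highest correlation with Ccnd1 and with Ccne2. Further genes are said to be named after their values were seen. Alternatives were median centring, quantile normalization, no filter, a filter at the 60th percentile, a block for replicate number, array weights, a fit to only the 6 arrays compared, a minimum change of 1 log2, averaging the probe sets of a gene, no intensity trend, and dropping 1 array of the compared groups at a time.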

Additional observations from a re-analysis of the deposited data

How the results depend on the processing

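Each of the 9 genes was recomputed under 15 alternatives in each comparison. In the γ+ group against control the calls of the members were unchanged under all 15, and a minimum change of 1 log2 left 5 (Ccnd1, Ccnd2, Ccne1, Ccne2 and Cdk2), as it did against the γ- group (5) and the 23/24 group (5). Of the 10025 genes tested, that minimum left 907, 868 and 902 in the same order. In the γ- group against control the 1 call became 5 with array weights (Ccnd1, Ccnd2, Ccne1, Ccne2 and Cdk6), 4 with the 6 arrays alone, 2 with quantile normalization and 0 with the minimum change. Between the γ- and 23/24 groups the 0 calls became 2 with array weights (Ccnd1 and Cdk2) and 1 with the 6 arrays alone (Cdk2). In the 23/24 group against control they became 3 with array weights (Ccne1, Ccne2 and Cdk2). Calls over all genes change with the setting too. Their numbers are not given here for the 6-array fits, and under array weights only for γ- against control. Nothing is therefore read from these added member calls. Leaving out 1 array at a time gave 8 to 8 members called in the γ+ group against control, 1 to 1 for γ- against control, 0 to 0 for 23/24 against control, 8 to 9 between the γ+ and γ- groups, 8 to 8 between the γ+ and 23/24 groups and 0 to 0 between the γ- and 23/24 groups. The replicate block gave 8, 1, 0, 9, 8 and 0 in the same order and changed no member's call. Same-numbered arrays did not deviate together (18 pairs, r from -0.223 to 0.124, 1 above 0.1), so the numbers were not treated as a pairing.

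Signs turned for small differences, none of them called. Ccnd3 in the γ+ group against control was 0.0020 with array weights, 0.0332 centred and -0.0868 to 0.0021 with an array left out (positive without γ+ replicate 2), in the γ+ group against the 23/24 group 0.0514 centred, and in the 23/24 group against control -0.0182 centred. Cdc25a in the 23/24 group against control was 0.0088 with quantile normalization. Between the γ- and 23/24 groups, Ccne1 was 0.0229 centred, Cdk4 -0.0118 with quantile normalization and -0.0125 to 0.0381 with an array left out (negative without 23/24 replicate 1), and Cdk6 0.0171 centred and -0.1187 to 0.0150 with an array left out (positive without 23/24 replicate 2). The cause was not tested. Over all genes the γ- group had 696 calls against control, and the members' counts in that comparison stand beside these. The number was 1745 under array weights, 784 with quantile normalization, 1363 without a filter, 425 at the 60th percentile, 436 centred and 2 with the minimum change.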
